A study of Rattus norvegicus with 15 samples.

Results

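The loci described here are the 142 assembled loci of the rat abdominal aorta for which the WKY libraries list 10 or more isoforms. They were chosen by that count alone, out of 14180 assembled loci, and so make up 1.00% of them. An assembled locus is a set of overlapping transcript models built from the reads, each model being an isoform with a number after the locus number (MERGE.18608.55 is isoform 55 of locus MERGE.18608). The 4 loci that the rule leaves out in any case had fewer than 10 isoforms. The 142 loci hold 1951 isoforms in the WKY libraries, 4.66% of the 41871 transcripts listed there, and 1717 of these are listed for all 15 libraries.

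RNA of whole abdominal aorta was sequenced after removal of ribosomal RNA, in 15 libraries of 5 per group. They comprise WKY, a normotensive rat strain (Wistar Kyoto), and SHR, the spontaneously hypertensive rat, both given double distilled water for 10 weeks, and SHR+Nef, the SHR rat given neferine at 10 mg/kg per day for 10 weeks. Neferine is an alkaloid of the lotus seed embryo. SHR is an inbred strain, so a difference from WKY is a difference between strains and cannot be told apart into genotype and blood pressure. The labels call each library a rat, without stating that no animal was used for more than 1, so p-values measure the spread between these libraries, which may be technical. The tissue could not be checked against marker genes, because the files pair no transcript with a gene name, and for the same reason the loci are given by number and without a function.

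Most genes of a mammal give rise to several RNAs, through alternative promoters, alternative splicing and alternative ends. The arterial wall, made mostly of smooth muscle, is a tissue with much regulated splicing of contractile proteins. A locus with many models can hold such true alternatives, neighbouring genes that the assembler joined, or fragments of incompletely covered RNAs. The deposited values do not separate these. Abundance is shared out among overlapping models by an estimate, so the value of an isoform is less certain than the sum over its locus. In bulk tissue, fewer cells of a type and less RNA per cell cannot be told apart.

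Per library, 3 measures describe a locus over its isoforms listed for all 15 libraries. The locus sum adds up the deposited abundances, which are never negative and have no stated unit. The top isoform share is the percentage of that sum held by the isoform with the highest mean over all libraries. The isoform entropy, in bits, is 0 when 1 isoform holds the whole sum and rises as isoforms share it evenly, and 2 to the power of the entropy is the effective number of equally used isoforms.

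In the 142 loci the abundance was spread over several isoforms. The number of isoforms listed ran from 10 to 56 with a median of 12, and the number listed for all 15 libraries from 6 to 38 with a median of 11. In 54 loci every listed isoform was listed for all 15. The mean entropy over the libraries was 0.594 to 4.43 bits with a median of 2.50, which is a median effective number of 5.66 isoforms. The effective number was 5 or more in 90 loci and under 2 in 3. The top isoform held a median of 23.5% of the sum, over 50% in 10 loci and under 25% in 78. The isoforms ranked next by mean held a median of 15.1% and 11.1%. The entropy was a median of 71.5% of the value that equal use of all isoforms would give.

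**Figure D1:**
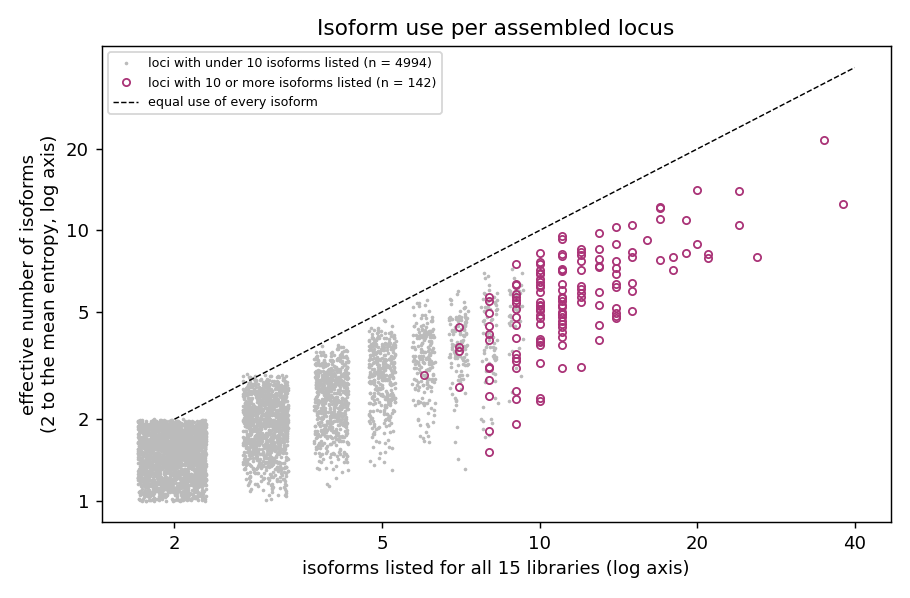
Effective number of isoforms (2 to the power of the mean entropy over 15 libraries, log axis) against the number of isoforms listed for all 15 libraries (log axis), with 1 point per assembled locus and the dashed line at equal use of all isoforms. The 142 loci with 10 or more listed isoforms run from 1.51 to 21.6 effective isoforms, below the line.

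The number of isoforms went with a larger sum and a flatter distribution. The median of the mean sums was 18.2 in the 142 loci, 9.64 in loci with 5 to 9 listed isoforms and 4.93 in loci with 2 to 4, while the median value per isoform was 1.17, 1.36 and 1.62 in the same order. The median top share was 23.5%, 35.5% and 60.0%, and the median effective number 5.66, 3.10 and 1.67. These gradients follow in part from the count itself and are given as a description. At the boundary of the rule, the 36 loci with 10 listed isoforms had a median sum of 14.9, a median top share of 25.9% and a median entropy of 2.27 bits. The 61 loci with 9 had 13.03, 29.4% and 2.20 bits, so nothing changed abruptly there.

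Some loci mark the ends of the range. MERGE.24658 had the highest mean sum, 843.0, spread over 24 isoforms of which the top held a mean of 10.3%. MERGE.28196 had the lowest, 4.84, over 9 isoforms. MERGE.28248, with 35 isoforms listed for all 15 libraries, had the highest mean entropy, 4.43 bits, and MERGE.28248.35 was its highest isoform in 14 of 15 libraries. In MERGE.34187 the mean entropy was lowest, 0.594 bits, but the isoform in the lead was not the same from library to library. There MERGE.34187.1 held 100% of the sum in SHR replicate 4 and 0% in WKY replicate 3, and 8 different isoforms led in at least 1 library. The sum itself was 55.1 to 300.8 in 14 libraries and 0.00999 in SHR+Nef replicate 5.

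Changing leadership was common. Over the 15 libraries a median of 5 different isoforms held the highest value of a locus, and in 83 of 142 loci it was 5 or more. The same isoform led in all 15 libraries in 6 loci, 4.23%, against 4.31% of loci with 5 to 9 isoforms and 14.1% of those with 2 to 4. The isoform that led most often in WKY was another than in SHR in 69 loci, yet in 0 of these did both isoforms lead in 4 or 5 libraries of their strain. Leaders were taken only from isoforms listed for all 15 libraries. That list leaves out isoforms high in WKY and low in both SHR groups, so a switch from such an isoform could not be counted. No share over other loci stands beside these counts. Between SHR and SHR+Nef this was so in 1 locus, MERGE.1504, where MERGE.1504.14 led in 4 SHR libraries and MERGE.1504.16 in 4 SHR+Nef libraries. MERGE.1504.16 also led most often in WKY, in 2 libraries.

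Locus sums varied less than the isoforms that make them up. The coefficient of variation over the 15 libraries was a median of 27.3% for the sums and 87.6% for the 978 isoforms with a mean of 1 or more. That contrast follows in part from summing itself and is given as a description. The variance of the sum was below the summed variances of its isoforms in 97 of 142 loci (68.3%), so there the covariances between isoforms of a locus summed to less than 0. This share was 76.7% in loci with 5 to 9 isoforms and 67.6% in those with 2 to 4. The median ratio in the 142 loci was 0.661. The ratio was 0.597 without SHR replicate 4. It was 0.591 in loci with 5 to 9 isoforms and 0.781 in those with 2 to 4, so it did not fall steadily with the number of isoforms. The Jensen-Shannon divergence of isoform shares, which is 0 for equal and 1 for disjoint profiles, was a median of 0.275 between libraries of a group, 0.305 between SHR and WKY libraries and 0.312 between SHR+Nef and SHR libraries. Over these isoforms and with SHR replicate 4 included, the distance between groups was thus little larger than the distance within them. In the same order it was 0.233, 0.266 and 0.270 in 195 loci with 5 to 9 isoforms. In 804 loci with 2 to 4 it was 0.139, 0.158 and 0.156. Isoforms high in WKY and low in both SHR groups are not on the list used, so the distance between strains over all their isoforms was not measured.

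SHR replicate 4 stood apart from the other libraries in these loci. Of the 1717 isoforms, 37.7% were listed at 0 there, against 12.6% to 18.9% in the other 14 libraries. Its median entropy was 1.88 bits against 2.49 to 2.69, and its median locus sum 13.7 against 15.6 to 21.2. Over all 39097 transcripts it listed 8259 at 0, the others 2560 to 3739. The summed abundance of a library was 496460 to 746274, of which the 142 loci held 0.737% to 1.63%. Depth in reads is not known from the files, and how it bears on the number of isoforms at 0 was not tested. Results are therefore given with and without this library where it changed them.

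**Figure D2:**
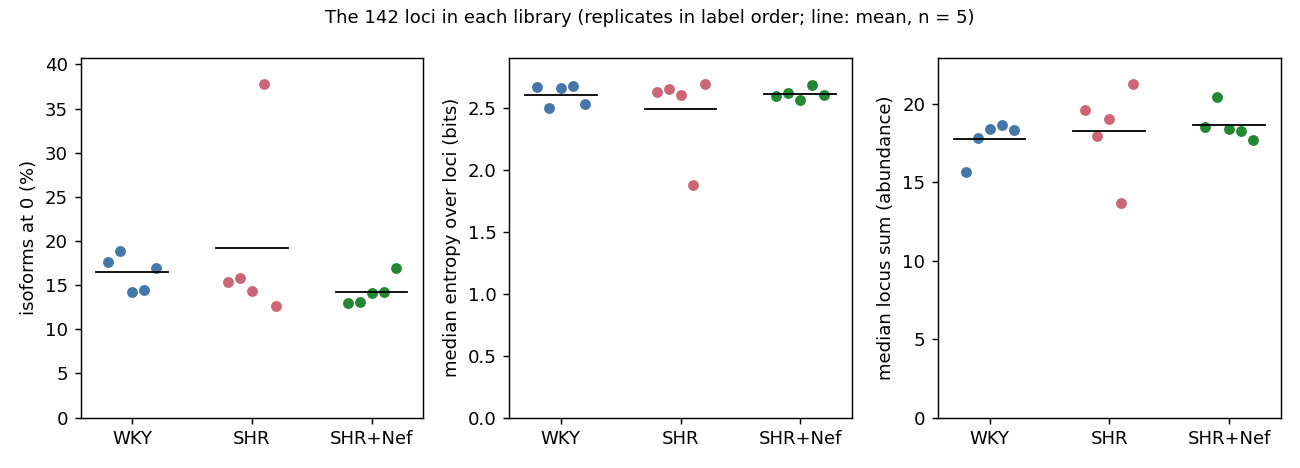
Percentage of the 1717 isoforms at 0, median isoform entropy (bits) and median locus sum (abundance) over the 142 loci, with 1 point per library and a line at each group mean of 5. SHR replicate 4 has 37.7% of isoforms at 0 and a median entropy of 1.88 bits, and no other library passes 18.9% or falls below 2.49 bits.

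Which isoforms are listed bears on the strain comparison. The WKY and SHR tables hold only transcripts whose mean reaches 0.5 in at least 1 of these 2 groups. Those that are also in the SHR+Nef tables reach it in SHR, in SHR+Nef or in both. An isoform that is high in WKY and low in SHR and SHR+Nef therefore drops out of the list for all 15, while the opposite pattern stays in. This removed 234 isoforms of 88 of the 142 loci, all with an SHR mean under 0.5. Of these, 96 had a WKY mean of 1 or more, and the highest was 22.7. They held over 10% of the WKY sum in 39 loci, over 25% in 14 and over 50% in 2. The comparison of SHR with WKY is therefore also given over the isoforms listed for both strains, a list that treats them alike.

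A difference between the strains that kept its call under all alternatives run lay within MERGE.18608, the locus with the most isoforms listed for all 15 libraries (38, of 53 listed in WKY). Its isoform MERGE.18608.55 was 13.8, 14.1, 14.6, 12.02 and 10.8 in the WKY libraries. In SHR it was 1.31, 1.47, 1.71, 0.905 and 3.05, and in SHR+Nef 3.18, 3.67, 3.75, 2.45 and 1.17. The WKY values lay above those of both other groups without overlap. On the log2(value + 1) scale the SHR minus WKY difference was -2.43 (SE 0.24, limma, adjusted p = 6.22e-05), and it kept its call in all 25 alternatives.

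MERGE.18608.90 went the other way. It was 1.03, 3.86, 2.69, 2.17 and 4.09 in WKY, 16.9, 10.9, 15.6, 31.5 and 15.01 in SHR, and 19.9, 9.91, 20.3, 24.7 and 18.8 in SHR+Nef. Again WKY did not overlap with either SHR group, at a difference of 2.32 (SE 0.31, limma, adjusted p = 0.00105). MERGE.18608.80, at 0.109 to 0.225 in WKY, reached 1.39 to 3.97 in SHR and a similar 2.003 to 2.50 in SHR+Nef, a difference of 1.57 for SHR minus WKY (SE 0.17, limma, adjusted p = 0.000175). It reached the listing and the filter only through the SHR and SHR+Nef libraries, so its call is given as a description. MERGE.18608.37 was 5.72, 4.21, 5.95, 7.91 and 2.88 in WKY, and in SHR it was 0 in 4 libraries and 0.126 in replicate 5. Its difference was -2.57 (SE 0.42, limma, adjusted p = 0.00526). None of these 3 isoforms lost its call in an alternative in which it was tested, where MERGE.18608.80 was tested in 23, MERGE.18608.37 in 24 and MERGE.18608.90 in 25.

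The relative shift of isoforms was tested isoform by isoform, as the log2 value less the average log2 value of the remaining isoforms at that locus, with p-values joined per locus by Simes' method. Of 137 loci tested, 2 passed in SHR against WKY, 1 led by a higher and 1 by a lower isoform, beside 0.799% of all 3878 loci tested. For MERGE.18608 the leading isoform was MERGE.18608.55, with a shift of -2.98 (SE 0.29, limma with Simes, adjusted p = 0.000782). The call held in all 25 alternatives, but over the list of both strains another isoform led and the shift had the opposite sign. Under that list 2 of 119 loci passed, beside 1% of 2992. There MERGE.18608.80 led with a shift of 2.62 (SE 0.27, limma with Simes, adjusted p = 0.00787). This isoform reached the filter only through the SHR libraries. The isoforms it is set against include some whose low SHR values the listing sets, so that shift is given as a description.

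The entropy and the sum of MERGE.18608 depended on which isoforms were counted, as did the leading isoform and the sign of its shift. Over the 38 isoforms its entropy was 2.99, 3.55, 3.18, 3.27 and 2.77 bits in WKY and 4.06, 3.97, 3.85, 3.77 and 3.76 in SHR. In SHR+Nef it was 3.81, 3.96, 3.83, 4.07 and 3.90 bits. This was the 1 entropy of 142 that passed in SHR against WKY, beside 0.273% of 5135 loci, at a difference of 0.73 bits (SE 0.13, limma, adjusted p = 0.0244). Over all 53 isoforms the difference was -0.11 bits (SE 0.10, limma, adjusted p = 0.855). The 15 isoforms not listed for SHR+Nef held 44.95% of the WKY sum, 69.9 ± 7.57 (SD, n = 5), and 2.24 ± 1.29 in SHR. They include MERGE.18608.49, at 9.25 to 26.2 in WKY and 0 to 1.18 in SHR. The low SHR values of these 15 isoforms follow from the listing and are given as a description. The full sum was 157.2 ± 19.2 in WKY and 126.5 ± 32.2 in SHR, a difference of -0.33 (SE 0.19, limma, adjusted p = 0.653). The call over 38 isoforms was also lost without SHR replicate 1, 2 or 3 or WKY replicate 1 or 3, at adjusted p of up to 0.0851. Without SHR replicate 4 the call held, and further entropies of the 142 passed, as counted below under the alternatives.

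**Figure D3:**
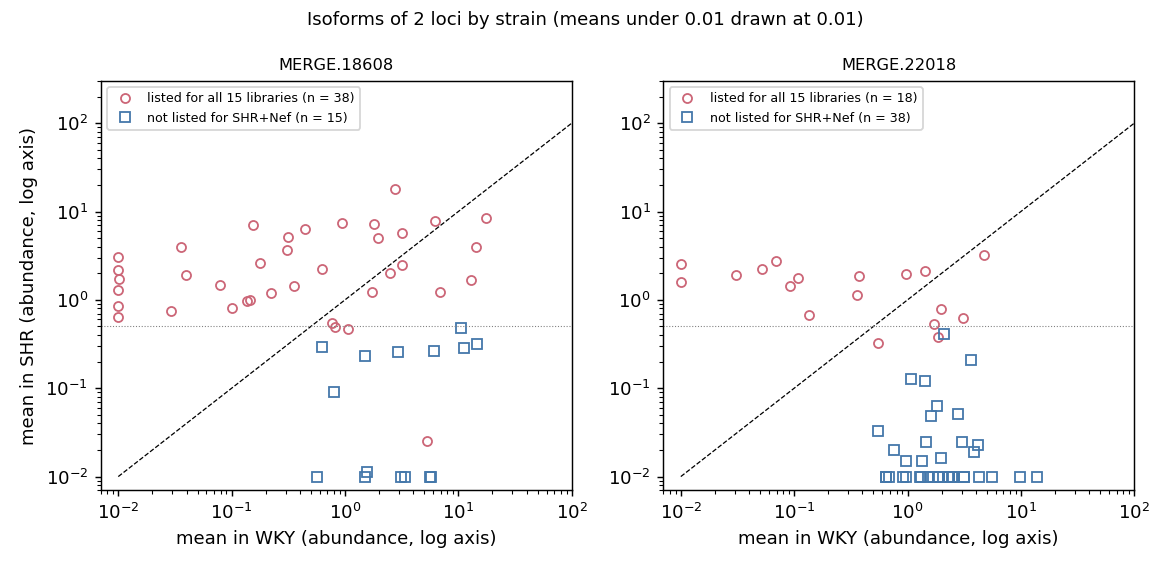
Mean abundance of each isoform in SHR against WKY (both log axes, means under 0.01 drawn at 0.01, 5 libraries per mean) for MERGE.18608 and MERGE.22018, with circles for isoforms listed for all 15 libraries, squares for those not listed for SHR+Nef, the dashed line at equality and the dotted line at 0.5. All squares lie below 0.5 in SHR, which the listing sets, while 27 of 38 circles in MERGE.18608 and 12 of 18 in MERGE.22018 lie above the line of equality. The listing also requires circles to reach 0.5 in SHR or SHR+Nef, so the contrast is given as a description.

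MERGE.22018, singled out after its values were seen, is the locus with the most isoforms listed in WKY, 56, of which 38 are not listed for SHR+Nef. Over the 18 others its sum was 15.6, 24.6, 11.03, 20.03 and 16.3 in WKY and 18.4, 8.46, 40.5, 15.4 and 56.5 in SHR, with overlap (difference 0.39, SE 0.43, limma, adjusted p = 0.781). Over all 56 it was 195.1, 153.5, 70.1, 75.03 and 83.2 in WKY and 21.6, 9.11, 41.5, 16.2 and 57.2 in SHR, without overlap. That difference of -2.10 (SE 0.48) did not pass after adjustment (limma, adjusted p = 0.0614). The 38 isoforms carried 82.8% of the WKY sum and 6.03% of the SHR sum, and 11 of them were at 0 in all 5 SHR libraries. The low SHR values of these 38 isoforms follow from the listing and are given as a description.

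Of the 142 locus sums, 4 were higher and 0 lower in SHR than in WKY over the isoforms listed for all 15 libraries, a share of 2.82% beside 1.97% of all 10401 loci tested (1.3% higher and 0.673% lower). By tests without adjustment 20 of 142 had p under 0.05, beside 1141 of all 10401 loci. The median difference on the log2(sum + 1) scale was 0.03 in the 142 loci and -0.01 over all loci. The groups did not overlap in 7 loci (4.93%), 6 higher and 1 lower, beside 3.23% of all loci.

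The largest of the 4 differences was that of MERGE.17595. Its sum was 0.472, 0.903, 0.871, 0.492 and 0.00966 in WKY, 6.56, 9.76, 7.73, 3.59 and 21.0 in SHR, and 11.1, 17.3, 8.78, 8.71 and 8.26 in SHR+Nef. WKY was lower without overlap, at a difference of 2.63 for SHR (SE 0.34, limma, adjusted p = 0.000412). Over the isoforms listed for both strains, however, WKY was 8.27, 7.73, 11.6, 15.9 and 5.47. Its mean of 9.79 ± 4.04 (SD, n = 5) stood beside 9.73 ± 6.67 in SHR, a difference of -0.13 (SE 0.39, limma, adjusted p = 0.931). Without SHR replicate 4 this difference was 0.13 (SE 0.36, limma, adjusted p = 0.956), so its sign changed with that library. The 4 isoforms not listed for SHR+Nef held 94.4% of the WKY sum and 0.0263% of the SHR sum. MERGE.17595.16 among them was 6.19, 5.87, 6.59, 10.8 and 0.0761 in WKY and 0 in all 5 SHR libraries. The low SHR values of these 4 isoforms follow from the listing, which leaves out only isoforms with an SHR mean under 0.5, and they are given as a description. Over the list of both strains the top isoform share of MERGE.17595 did not pass (limma, adjusted p = 0.141), nor did any of its isoforms tested.

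MERGE.4433 and MERGE.11510 were higher in SHR under both lists, but passed the test only over the isoforms listed for all 15 libraries. MERGE.4433 was 6.47, 25.5, 8.52, 5.36 and 8.77 in WKY and 61.0, 37.7, 61.2, 32.8 and 22.6 in SHR. WKY replicate 2 lay inside the SHR range. The means were 3.95-fold apart, at a difference of 1.999 (SE 0.37, limma, adjusted p = 0.00754). Over the isoforms listed for both strains the difference was 1.14 (SE 0.38, limma, adjusted p = 0.295), as MERGE.4433.1 added 0.301 to 24.8 to the WKY sums. MERGE.11510 was 5.02, 4.80, 5.19, 7.14 and 8.69 in WKY and 19.4, 18.6, 12.5, 32.5 and 16.6 in SHR, without overlap. Its difference was 1.51 (SE 0.24, limma, adjusted p = 0.00271), and 0.65 (SE 0.23, limma, adjusted p = 0.34) over the isoforms of both strains. MERGE.11510.13, at 2.42 to 4.70 in WKY and 0 to 0.971 in SHR, is listed for both strains but not for SHR+Nef.

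MERGE.24658, the locus with the highest abundance, has all of its 24 isoforms listed for all 15 libraries. Its sum was 378.9, 720.0, 526.1, 392.3 and 351.0 in WKY, 1089, 1284, 983.5, 1549.8 and 674.5 in SHR, and 711.4, 576.9, 894.5, 1055 and 1459 in SHR+Nef. WKY replicate 2 lay above SHR replicate 5, and the other WKY values below all SHR values. The SHR mean was 2.36-fold the WKY mean, a difference of 1.23 (SE 0.28, limma, adjusted p = 0.0309), and over the isoforms of both strains the adjusted p by limma was 0.0481. The direction was the same in all 25 alternatives, and the call was lost in 12 of them, among them leaving out SHR replicate 1, 2, 3 or 4 or WKY replicate 1, 3, 4 or 5, with adjusted p of up to 0.0949. Its entropy differed by 0.14 bits (SE 0.11, limma, adjusted p = 0.839). Of its isoforms, MERGE.24658.19 passed in SHR against WKY (difference 1.06, SE 0.24, limma, adjusted p = 0.0471).

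**Figure D4:**
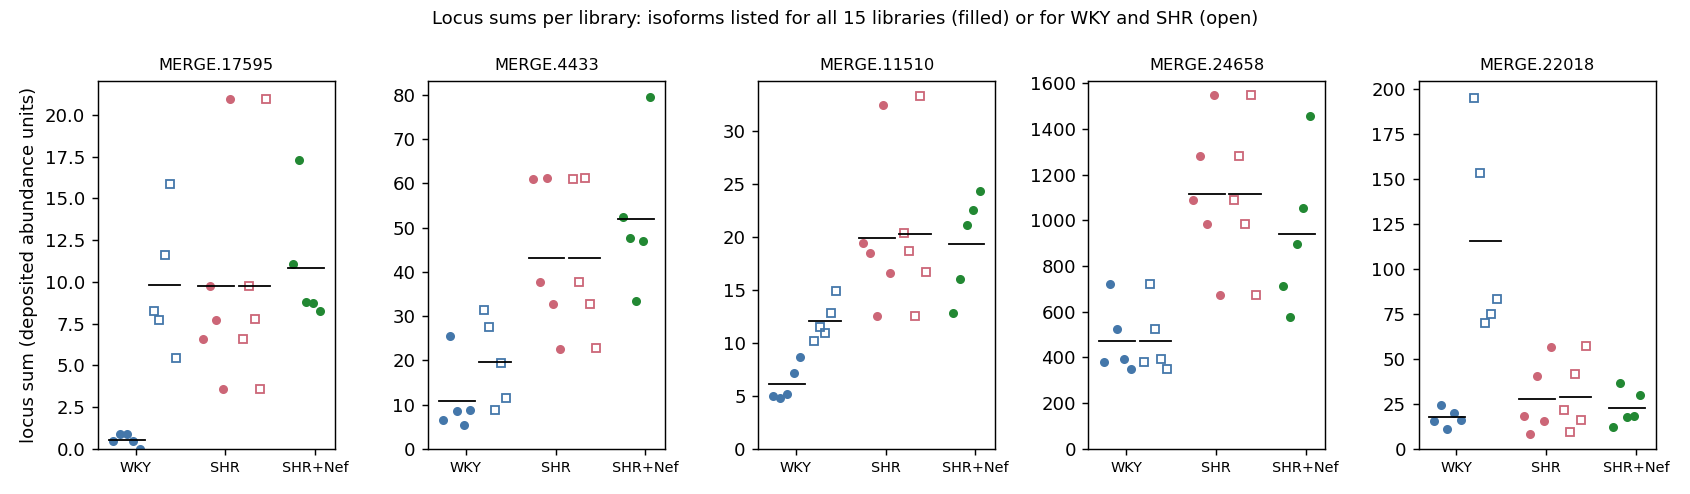
Locus sums per library (deposited abundance units, linear axes from 0) of 5 loci in the 3 groups, with lines at the means of 5 libraries, filled for isoforms listed for all 15 libraries and open for isoforms listed for WKY and SHR. The open WKY points lie far above the filled ones in MERGE.17595 (means 9.79 and 0.550) and MERGE.22018 (115.4 and 17.5), and on them in MERGE.24658 (473.7 each).

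Over the isoforms of both strains, 1 of the 142 sums passed, MERGE.24658, beside 1.76% of 9626 loci. Of the top shares and entropies 0 of 142 passed by limma, beside 0.842% and 0.337% of 5342 loci. The unadjusted p by limma was under 0.05 in 9 and 15 of 142, beside 379 and 367 of 5342. Without SHR replicate 4, 0 sums passed, with 22 at an unadjusted p under 0.05 by limma. With all 10 libraries the median difference of the 142 sums was -0.05, beside -0.04 over all loci tested.

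The top isoform share passed in 1 of 142 loci in SHR against WKY, beside 0.662% of 5135. In MERGE.30969 the isoform MERGE.30969.3 held 49.8%, 43.0%, 29.5%, 28.5% and 47.9% of the sum in WKY and 13.7%, 10.9%, 7.17%, 5.22% and 17.9% in SHR. In SHR+Nef it held 18.1%, 27.6%, 20.3%, 11.1% and 26.4%, below all WKY values and partly above those of SHR. The SHR minus WKY difference was -28.8 percentage points (SE 5.97, limma, adjusted p = 0.0421). The call was lost in 22 of 26 alternatives, and leaving out any library other than WKY replicate 4 ended it, at adjusted p of 0.0512 to 0.111. MERGE.30969.3 itself was 3.73 ± 0.557 in WKY and 1.87 ± 0.475 in SHR (SD, n = 5).

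Single isoforms passed in SHR against WKY in 14 of 1025 tested, 10 higher and 4 lower, beside 1.14% of 29095 transcripts tested (0.667% higher and 0.471% lower). They came from 7 loci, 5 of them from MERGE.18608 and 3 from MERGE.17816. In MERGE.17816 the sum did not pass (difference 0.03, SE 0.38, limma, adjusted p = 0.985), while its isoforms went in opposite directions. MERGE.17816.1 was 0, 2.19, 2.07, 0 and 0 in WKY, 8.60, 4.93, 14.9, 8.69 and 2.01 in SHR, and 7.14, 5.52, 12.2, 10.9 and 9.42 in SHR+Nef. Among the SHR libraries, replicate 5 lay within the WKY range. MERGE.17816.2 was 4.51, 13.3, 1.99, 9.08 and 8.33 in WKY, 1.13, 0.0184, 0.0185, 2.27 and 0.00521 in SHR, and 0.266, 0.0104, 0, 0.173 and 1.76 in SHR+Nef. MERGE.17816.7 was 5.16 to 12.8 in WKY and 0 to 0.881 in 4 SHR libraries, with replicate 1 at 6.87.

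By limma the SHR minus WKY differences were 2.28 for MERGE.17816.1 (adjusted p = 0.0263), -2.32 for MERGE.17816.2 (adjusted p = 0.0218) and -2.43 for MERGE.17816.7 (adjusted p = 0.0271). The shift of the locus MERGE.17816, led by MERGE.17816.1, was 2.87 (SE 0.49, limma with Simes, adjusted p = 0.0443). That call was lost in 20 of 25 alternatives, among them leaving out any 1 of 12 libraries, with adjusted p of 0.0526 to 0.169 for those. The calls of the 3 isoforms were lost in 10, 9 and 13 alternatives, each by leaving out single libraries too. The abundances are of low to moderate size, and several are exactly 0, which can be a failed estimate.

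**Figure D5:**
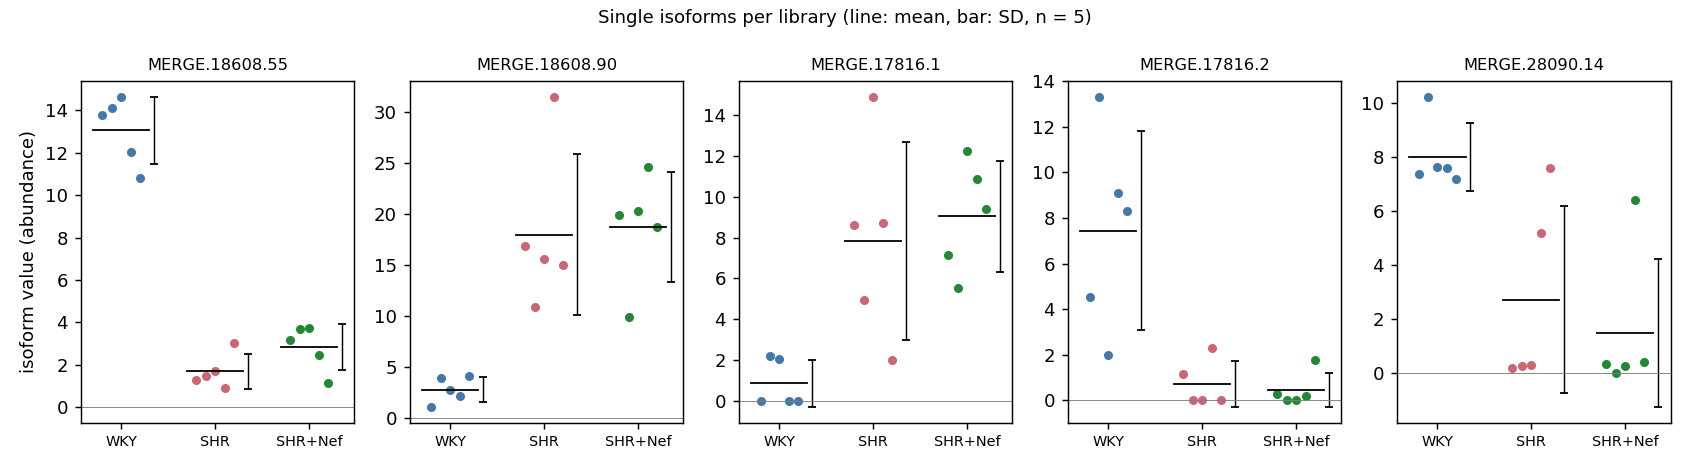
Values per library (abundance) of 5 isoforms in WKY, SHR and SHR+Nef, with a line at the mean and a bar for the SD of 5 libraries. WKY lies apart from both SHR groups in MERGE.18608.55 (10.8 to 14.6) and MERGE.18608.90 (1.03 to 4.09), while SHR overlaps with WKY in MERGE.17816.1, MERGE.17816.2 and MERGE.28090.14.

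MERGE.18478.37 had a listed value of 0 in every WKY library, and 3.88, 2.80, 4.79, 25.5 and 15.2 in SHR and 15.1, 12.4, 11.02, 0.839 and 9.03 in SHR+Nef. It was the 1 isoform of 1717 at 0 in all of WKY and at 1 or more in all of SHR, beside 12 of all 39097 transcripts. Its difference passed in SHR against WKY (limma, adjusted p = 0.0186), and the call was lost in 3 of 24 alternatives, among them leaving out WKY replicate 3 or 4 (limma, adjusted p = 0.0507 and 0.05). It reached the listing and the filter only through the SHR and SHR+Nef libraries, so this call is given as a description. The 2 isoforms of MERGE.18478 not listed for SHR+Nef summed to 9.93 ± 12.1 in WKY and 0.00452 ± 0.0062 in SHR (SD, n = 5), low SHR values that the listing sets. MERGE.7976.4 was 0, 3.89, 2.56, 0 and 1.39 in WKY and 7.36, 9.84, 16.8, 52.3 and 6.40 in SHR, without overlap and with SHR replicate 4 highest (difference 2.78, SE 0.55, limma, adjusted p = 0.0226). That call was lost in 9 of 25 alternatives. Over the isoforms listed for both strains its adjusted p by limma was 0.08, and 0.115 without SHR replicate 4 as well. With only the 2 groups compared it was 0.104, and without SHR replicate 3 or WKY replicate 1, 4 or 5 it was 0.0533 to 0.0686.

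Over the isoforms listed for both strains, 21 of 739 passed, 6 higher and 15 lower in SHR, beside 1.21% of 24615 transcripts (0.492% higher and 0.719% lower). Of the 17 tested that are not listed for SHR+Nef 13 passed, all lower, a direction that their listing sets. Of the 722 others 8 passed, 6 higher and 2 lower. Of the 15 lower isoforms, 9 belong to MERGE.18608, 5 to MERGE.22018 and 1 to MERGE.11510.

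Neferine treatment left no call in these loci by limma over the isoforms listed for all 15 libraries. The 99 isoforms listed for SHR+Nef only, 27 of them with a mean of 1 or more, could not be tested. In SHR+Nef against SHR, limma passed 0 of 142 sums, 0 of 142 top shares, 0 of 142 entropies, 0 of 137 shifts and 0 of 1025 isoforms. Unadjusted p-values under 0.05 numbered 10, 9, 11, 9 and 77 in that order. Over everything tested they numbered 637 of 10401, 275 of 5135, 267 of 5135, 227 of 3878 and 1790 of 29095. In the 142 loci the smallest adjusted p-values by limma were 0.63, 0.629, 0.595, 0.734 and 0.551. The background was low as well: 0.0288% of 10401 sums and 0.00687% of 29095 transcripts passed, and 0 of 5135 top shares, 5135 entropies and 3878 shifts. The other method for shifts, diffSplice, passed 1 of 137. Leaving out any library, SHR replicate 4 included, left the counts at 0. The groups did not overlap in 2 sums (1.41%, beside 1.29% of all loci), 1 top share (0.704%, beside 1.25%) and 1 entropy (0.704%, beside 0.779%). The median difference was 0.03 for the sums and 0.11 bits for the entropies, beside 0.05 and 0.04 bits over all loci.

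The members with the smallest p in each measure are given as values. The sum of MERGE.25599 was 11.1, 13.4, 11.3, 15.2 and 11.9 in SHR and 4.02, 3.47, 9.11, 5.66 and 9.11 in SHR+Nef, without overlap, and 5.90, 5.81, 11.8, 5.73 and 4.97 in WKY. SHR+Nef was in the range of WKY or below it, and the SHR+Nef minus SHR difference was -0.97 (SE 0.26, limma, adjusted p = 0.63). The entropy of MERGE.17416 was 1.30, 1.53, 2.22, 1.25 and 1.61 bits in SHR and 2.54, 2.24, 2.71, 2.70 and 2.24 in SHR+Nef, where WKY had 1.73, 1.12, 2.19, 1.60 and 1.40. All SHR+Nef libraries lay above all others, at a difference of 0.90 bits from SHR (SE 0.21, limma, adjusted p = 0.595).

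The top share of MERGE.31499, held by MERGE.31499.21, was 50.6%, 53.1%, 59.8%, 48.5% and 64.7% in SHR+Nef. In SHR it was 1.13%, 55.8%, 7.24%, 0% and 6.42%, and in WKY 50.3%, 7.18%, 48.2%, 1.39% and 3.06%. In the untreated rats its share was thus either near the SHR+Nef level or a few percent, and the SHR+Nef minus SHR difference was 41.2 points (SE 12.5, limma, adjusted p = 0.629). MERGE.18399.18 was 1.57, 1.34, 5.32, 2.27 and 5.62 in SHR, 0.996, 0, 0, 0 and 0.817 in SHR+Nef, and in WKY 1.27 in replicate 1 and 0 in the other 4. Its SHR+Nef minus SHR difference was -1.57 (SE 0.36, limma, adjusted p = 0.551), and the shift it led in MERGE.18399 was -1.85 (SE 0.41, limma with Simes, adjusted p = 0.734).

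SHR+Nef against WKY shares its WKY libraries with the strain comparison, and its values are set beside that one without a count of shared loci. Of 142 sums 3 were higher and 1 lower (2.82% in all, beside 2.3% of 10401 loci, 1.55% higher and 0.75% lower). Of the top shares 0 of 142 passed by limma, beside 0.331% of 5135. Their unadjusted p by limma was under 0.05 in 10 of 142, beside 281 of 5135. Of the entropies 1 passed (beside 0.234%) and of the shifts 2 of 137 (beside 0.593%). Of the isoforms 17 of 1025 passed, 12 higher and 5 lower (beside 1.3% of all transcripts, 0.818% higher and 0.478% lower). Groups did not overlap in 11 sums (7.75%, beside 5.39%), 4 top shares (2.82%, beside 2.32%) and 5 entropies (3.52%, beside 1.91%). The list for all 15 libraries leaves out the 234 isoforms listed for WKY and SHR only and 99 listed for SHR+Nef only, so this comparison covers neither.

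The loci named for the strain comparison had the following values against WKY. For the sums the SHR+Nef minus WKY differences were 2.92 in MERGE.17595 (SE 0.34, limma, adjusted p = 0.000168), 2.30 in MERGE.4433 (SE 0.37, limma, adjusted p = 0.00244) and 1.504 in MERGE.11510 (SE 0.24, limma, adjusted p = 0.00244). In these loci the isoforms not listed for SHR+Nef held 94.4%, 37.1% and 49.6% of the WKY sum, in that order. The WKY sums here lack them, so a rise of the whole locus cannot be read from these differences. In MERGE.24658 the difference was 0.97 (SE 0.28, limma, adjusted p = 0.107). In MERGE.18608 the isoforms left out held 44.95% of the WKY sum. Its entropy over the others differed by 0.76 bits (SE 0.13, limma, adjusted p = 0.0188), a call lost in 7 of 23 alternatives, among them leaving out SHR+Nef replicate 2 or 5 or WKY replicate 1 or 3, at adjusted p of up to 0.0818 for those. Its shift, led by MERGE.18608.55, was -2.69 (SE 0.29, limma with Simes, adjusted p = 0.00242), a call lost in 1 of 23 alternatives, the replicate block. The shift of MERGE.17816 was 3.01 (SE 0.49, limma with Simes, adjusted p = 0.0383), lost in 14 of 23 alternatives. Its isoforms MERGE.17816.1 and MERGE.17816.2 differed by 2.62 and -2.48 (limma, adjusted p = 0.00956 and 0.013). MERGE.18608.55 differed by -1.92 and MERGE.18478.37 by 3.11 (limma, adjusted p = 0.000635 and 0.0172). The first call held in all 23 alternatives, and the second was lost in 4 of 22, among them leaving out SHR+Nef replicate 1, 2 or 4 (limma, adjusted p = 0.0516, 0.0511 and 0.0504). MERGE.18478.37 reached the listing and the filter only through the SHR and SHR+Nef libraries, so its call is given as a description.

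MERGE.28090 was the 1 sum lower in SHR+Nef than in WKY. It was 15.6, 17.7, 14.3, 15.7 and 12.8 in WKY, 11.3, 11.8, 12.1, 14.3 and 13.8 in SHR, and 7.34, 7.78, 9.55, 13.3 and 9.79 in SHR+Nef. SHR lay between the others and overlapped with both, and SHR+Nef replicate 5 lay within the WKY range. The SHR+Nef minus WKY difference was -0.64 (SE 0.15, limma, adjusted p = 0.0406). The call was lost in 15 of 23 alternatives, among them median scaling (adjusted p = 0.0793) and leaving out any 1 of 12 libraries, with adjusted p of up to 0.11. Its isoform MERGE.28090.14 was 7.39, 10.3, 7.65, 7.62 and 7.18 in WKY, 0.215, 0.278, 0.322, 5.20 and 7.61 in SHR, and 0.358, 0.00443, 0.273, 6.41 and 0.428 in SHR+Nef. WKY libraries were thus alike, while 3 SHR and 4 SHR+Nef libraries were near 0 and the others at 5.20 to 7.61. Its share of the sum differed between SHR+Nef and WKY by -40.7 points (SE 11.6, limma, adjusted p = 0.285).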

How the data were processed

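Each library's table, as deposited by the authors, gives transcripts with a signal, an abundance with decimals and no named scale. The submitters' processing notes name limma and mm10, a mouse build, although the IDs are of rat. Aligner, assembler and estimator stay not given in the sources used here, for want of a header that names them. Sample labels (rats) were followed over the series text (mice). The filter by group means was read from the values themselves. No depth in reads is known, so no counting intervals are given.

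The loci, measures and tests were chosen with earlier results of these data known. Sums and isoforms were tested as log2(value + 1), and shares and entropies as such, over all loci or transcripts that reached 1 in at least 5 libraries. All 142 loci passed that filter for their sums, shares and entropies, 137 with at least 2 tested isoforms entered the shift test, and 1025 of their 1717 isoforms were tested. The test was limma 3.58.1 in R 4.3.3 (trend and robust options, two-sided, 3 groups in 1 model). The p-values were adjusted by Benjamini and Hochberg over everything tested per comparison and measure, with calls at 0.05. A log2(value + 1) difference understates changes of low isoforms. The scripts were tested on simulated data. Python 3.11.15 with matplotlib 3.10.9 drew the figures.

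Named per comparison and measure were up to 2 loci or isoforms with the largest positive and up to 2 with the largest negative difference among those called, otherwise the one with the smallest p, and loci at the ends of the range. Other loci and isoforms named, such as MERGE.11510, MERGE.24658 in the comparisons, MERGE.22018, MERGE.18608.80 and MERGE.18608.90, were chosen after their values were seen. Of the IDs, 0 matched the gene table at hand, so no gene names or sequences are given. The alternatives were array weights, plain limma, scaling by medians, other filters, a pseudocount of 0.1, other measures of share, entropy and shift, 2 groups alone, a replicate block, each library left out, and the list of both strains. For shift and isoform tests that list, and for every measure that list without SHR replicate 4, were added after seeing the data.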

Additional observations from a re-analysis of the deposited data

Results flagged for a closer look

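Among 63 groups of 5 libraries examined for a value far from the other 4, 11 had such a value. The nominal rate of about 5% is for independent groups. These groups share libraries, many are of loci named for their values, and some hold mostly values of 0. The number found therefore cannot be compared with that rate. SHR replicate 4 stood apart from the other SHR libraries with 37.7% of the isoforms at 0 and with a median entropy of 1.88 bits. In WKY, replicate 2 was far above the others in the sum of MERGE.4433 (25.5), replicate 3 in the sum of MERGE.25599 (11.8) and replicate 1 in MERGE.18399.18 (1.27). In SHR, replicate 2 was far above the others in the top share of MERGE.31499 (55.8%), replicate 4 in MERGE.7976.4 (52.3), replicate 5 in MERGE.18608.37 (0.126) and replicate 1 in MERGE.17816.7 (6.87). In SHR+Nef, replicate 5 was far above the others in the top share of MERGE.28090 (48.1%) and replicate 6 in MERGE.17816.2 (1.76).

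The SHR+Nef tables list 99 isoforms of these loci, in 61 of the loci, that the WKY and SHR tables do not list, so they entered no comparison. Of these, 27 had a mean of 1 or more and 4 were at 1 or more in all 5 libraries. The means were 1.35 ± 0.316 (SD, n = 5) in MERGE.1823.18, 1.72 ± 0.513 in MERGE.31949.20, 1.49 ± 0.490 in MERGE.1823.30 and 2.27 ± 0.427 in MERGE.10540.18. Their values in WKY and SHR were not analysed here.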

How the results depend on the processing

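Of 361 counts of calls under the alternatives, 272 were within 1.5 times the reported count. Over the isoforms listed for both strains, SHR against WKY gave 1 sum, 0 top shares (9 at an unadjusted p under 0.05 by limma) and 0 entropies (15). Without SHR replicate 4 as well it gave 0 sums (22), 0 shares (8) and 0 entropies (17). Over that list with all 10 libraries the sum of MERGE.17595 turned to -0.13 (0.13 without SHR replicate 4, so not reversed), the entropy of MERGE.18608 to -0.11 bits (-0.0616 bits without SHR replicate 4) and the sum of MERGE.22018 to -2.10 (-1.96 without it). The sign of MERGE.17595 thus rested on SHR replicate 4 as well as on the list, and the cause was not tested.

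Array weights gave 2 entropies and 0 shares (5 unadjusted by limma) in SHR against WKY, and 7 sums and 30 isoforms in SHR+Nef against WKY. The Simpson index gave 0 entropies in both (17 and 13 unadjusted). With only the 2 groups compared, SHR against WKY gave 7 isoforms, 1 shift, 0 entropies (19) and 0 shares (7), and SHR+Nef against WKY 0 entropies (23). The stricter filter gave 8 and 6 isoforms and 1 shift in each, and no filter 1 shift in each. By diffSplice 5, 1 and 7 shifts passed in SHR against WKY, SHR+Nef against SHR and SHR+Nef against WKY. Without isoforms of a mean under 1, and by the log2 ratio of top to other isoforms, 0 shares passed in SHR against WKY (7 unadjusted in each). Taking the highest isoform within each library, 1 share passed in SHR+Nef against WKY.

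Leaving out 1 library at a time gave, for SHR against WKY, 3 to 5 sums, 0 to 1 shares, 0 to 3 entropies, 1 to 2 shifts and 8 to 15 isoforms, and for SHR+Nef against WKY 3 to 6 sums, 0 to 1 entropies, 1 to 2 shifts and 8 to 22 isoforms. The entropies were 3 without SHR replicate 4. The isoforms fell to 9 without SHR replicate 3, WKY replicate 3 or WKY replicate 4 and to 8 without WKY replicate 5 in SHR against WKY. In SHR+Nef against WKY they fell to 8 without WKY replicate 3, 10 without SHR+Nef replicate 2, and 11 without SHR+Nef replicate 5 or WKY replicate 1, 2 or 5.

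Over all transcripts that passed the filter, libraries of the same replicate number were not more alike than other pairs. Whether a number marks something shared that acts on some transcripts was not tested. Over 13 same-numbered pairs the correlation of deviations from the group means was -0.0672 to 0.0909, and over 62 other pairs -0.125 to 0.147. A replicate block gave 0 shares (8 unadjusted by limma), 0 entropies (19), 1 shift and 6 isoforms in SHR against WKY, and 0 shifts (11) and 10 isoforms in SHR+Nef against WKY. With the block 3 sums passed in each of these comparisons. Among others, the block also took the calls of MERGE.18478.37 (adjusted p by limma 0.11 in SHR against WKY and 0.174 in SHR+Nef against WKY), of MERGE.7976.4 (0.0953 in SHR against WKY) and of the shift of MERGE.18608 in SHR+Nef against WKY (shift -2.55, adjusted p = 0.147) past 0.05.

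The files give no depth, so how depth limits the detection of low isoforms is unknown. Values of overlapping isoforms are estimates, and the files hold no error for them.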
